A study of Apis mellifera with 18 samples.

Results

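The brains of honeybee (Apis mellifera ligustica) queens that received semen or seminal fluid were compared with those of control queens, and the change common to both fluids was described over 2 RNA-seq experiments. The members were 18 of the 18 libraries of the series. In Experiment 1, queens inseminated with 6 µl semen (3 libraries) or 6 µl seminal fluid (3 libraries) were compared with mock queens that went through the procedure without any fluid (3 libraries). In Experiment 2, the same 2 fluids at the same volume (3 libraries each) were compared with 6 µl Hayes saline (3 libraries). The saline queens were thus instrumentally inseminated as well. Below, "inseminated" and "insemination" stand for semen or seminal fluid only, and mock and saline are the controls. This gave 12 inseminated and 6 control libraries. All queens were exposed to CO2 on the day before to activate the ovaries, and all were briefly sedated with CO2 for the procedure and again when they were collected. Brains with their optic lobes were taken 24 h after the procedure, and each library pooled 3 brains. Queens were daughters of a single colony, semen was pooled over males, and seminal fluid, which is semen freed of sperm by centrifugation, came from a larger male pool and had been frozen, so semen and seminal fluid differ in more than the presence of sperm. Mock and saline were each used in 1 experiment only, so the kind of control and the experiment cannot be told apart.

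Seminal fluid is the secretion of male accessory glands that is transferred with sperm, and in insects its proteins are known to alter female physiology and behaviour after mating. A honeybee queen mates during a few flights early in life and stores the sperm she receives. Light detection in insect eyes runs through a phospholipase C encoded by norpA, which links the visual pigment and its G protein to the opening of TRP channels, and the axons of the photoreceptors end in the optic lobes.

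Of 15314 gene models in the files, 11857 had at least 10 counts in at least 6 libraries and were tested in 1 fit of all libraries with the experiment as a block. Assigned reads ranged from 26636844 to 51745752 per library. In Experiment 1 the mock libraries held 26636844 to 35725911 and the inseminated libraries 34488100 to 51745752, whereas in Experiment 2 the ranges were 31138373 to 38790156 and 32041040 to 44633262. Values below are CPM, read counts scaled to library size after TMM normalisation, and the part of the depth difference in any result was not tested. The summed level of 5 genes that mark photoreceptors (ninaC, TRP, inaD, GNB1 and myosin-IIIb) had a median of 332 CPM in inseminated and 288 CPM in mock libraries of Experiment 1, but 219 CPM in inseminated and 263 CPM in saline libraries of Experiment 2. inaD, which with myosin-IIIb carries most of the sum, did not follow the others. In seminal fluid replicates A, B and C of Experiment 2 it had 161, 175 and 162 CPM. The same libraries had 8.09, 15.3 and 35.7 CPM of ninaC, so the sum is no direct measure of photoreceptor content. The sum was highest in 1 seminal fluid library of Experiment 2, replicate C, at 434 CPM. That library also had the largest share of reads on GB49544, the most abundant gene, within its experiment (8.90%, against 0.840 to 4.74% in the other 8 libraries). Markers of neurons, glia, glands and fat body could not be paired with the identifiers used in the files and were not used here.

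A common response to semen or seminal fluid was measured in 282 genes (edgeR quasi-likelihood test, Benjamini-Hochberg adjusted p under 0.1). In inseminated queens 196 of them were higher and 86 lower. The 282 genes are 2.38% of all genes tested, with 1.65% higher and 0.725% lower. The test read both fluids as 1 arm, so a call does not require a change with each fluid. Of the 282 genes, 69 were also called both in a fit without seminal fluid and in a fit without semen. Each of those fits used fewer libraries. The changes were mostly small. The median log2 fold change was 0.49 among the genes that rose and -0.33 among those that fell, beside -0.01 over all genes tested, and 28 of the 282 changed by more than 2-fold. In 192 of them the change was under 1.5-fold. Genes that rose had a median level of 27.2 CPM and genes that fell 15.7 CPM, beside 18.3 CPM over all genes.

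The 4 differences that make up the common response were then read separately in a fit of the 6 groups. The sign was the same for semen and seminal fluid in both experiments in 281 of the 282 called genes, compared with 28.6% of all genes tested. Groups without overlap were rarer. In 79 genes, 0.666% of those tested, all 6 inseminated libraries lay above all 3 controls in each experiment, and 77 of these were among the called genes. In 21 genes, 0.177% of those tested, they lay below, and 18 of these were called. These counts use the libraries that also gave the calls, and describe the calls without adding to their support.

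The 2 experiments share no library, so that a gene chosen in one could be looked up in the other. Experiment 1 alone called 48 genes (0.405%), 40 higher and 8 lower, and all 48 had the same sign in Experiment 2. The 40 genes that rose had a median log2 fold change of 0.84 in Experiment 1 and of 0.83 in Experiment 2, and 26 of them were called there too. The 8 genes that fell went from -0.65 in Experiment 1 to -0.44 in Experiment 2, where 4 of them were called. Experiment 2 alone called 56 genes (0.472%), 46 higher and 10 lower, of which 45 and 9 had the same sign in Experiment 1. Their medians were smaller there, 0.78 against 0.66 among the genes that rose in Experiment 2 and -0.60 against -0.46 among those that fell, and 26 and 4 of them were called in Experiment 1 as well. Over all 11857 genes the sign was shared in 60.5%. The log2 fold changes of the 2 experiments had a Pearson's r of 0.26 and a Spearman's rho of 0.29 across the genes, which are not independent replicates. In total 30 genes were called with the same sign in each experiment alone. Of these, 29 are among 37 genes that the study had already listed, on the same libraries, as changed by both fluids in both experiments.

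**Figure D1:**
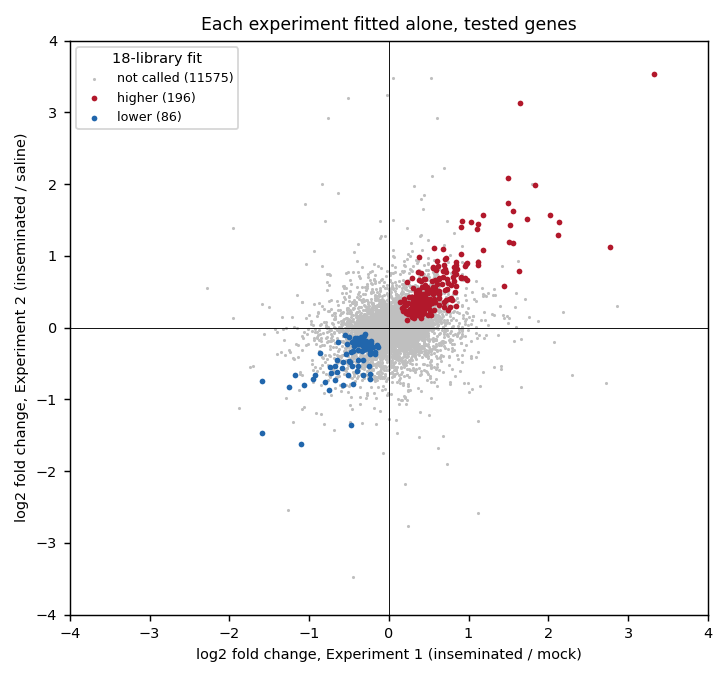
Log2 fold change of inseminated over control libraries in Experiment 1 (x axis, against mock) and Experiment 2 (y axis, against saline), each fitted alone. Each point is a gene, red and blue points are the 196 higher and 86 lower genes of the fit of all 18 libraries, grey points were not called, and 4 genes beyond an absolute value of 4, none of them called, lie outside the axes. The called genes lie at the upper right or the lower left of the origin. They were called on both experiments together, so this is in part fixed by the selection. Over all genes tested the sign was shared in 60.5%.

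Names could be paired with 57 identifiers, 37 of which the study had listed as changed in the same direction by both fluids in both experiments. These 37 genes were selected on the libraries analysed here, so that their calls are not independent evidence, and no count of them is read as a result. All 37 were called in the 18-library fit, 33 higher and 4 lower, with a median log2 fold change of 0.78. The other 245 called genes, 163 higher and 82 lower, carry no name in the tables used here. Their changes were smaller, with medians of 0.44 among those that rose and -0.32 among those that fell. Among them 244 had the same sign in all 4 differences, beside 28.6% of all genes tested. In 44 all inseminated libraries lay above the controls in both experiments and in 14 below, beside 0.666% and 0.177% of all genes. These counts use the libraries that gave the calls and add no support to them. Of the 245 genes, 212 were called in neither experiment alone. The named genes are described next by what their products are known to do.

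The largest and most certain increase was that of Hemicentin-1-like (GB44248), named for a family of extracellular matrix proteins with immunoglobulin domains. It had 0.874, 1.22 and 1.01 CPM in the 3 mock libraries, and 8.30 to 12.3 CPM with a median of 10.3 CPM in the 6 inseminated libraries of Experiment 1. The saline libraries had 1.03, 1.39 and 0.934 CPM, and the inseminated libraries of Experiment 2 had 10.5 to 18.1 CPM with a median of 12.3 CPM. No inseminated library came near a control. The increase was 10.9-fold (log2 fold change 3.44 ± 0.15 SE, n = 12 and 6, adjusted p = 4.62e-11 in edgeR's quasi-likelihood test). It measured 3.22 for semen and 3.43 for seminal fluid in Experiment 1, and 3.46 and 3.61 in Experiment 2.

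Cell adhesion molecule 3-like (GB53593), a member of the immunoglobulin superfamily, stood at 19.0 to 23.5 CPM in mock and 36.4 to 48.0 CPM in inseminated queens of Experiment 1, and at 11.7 to 13.8 CPM in saline and 22.9 to 26.1 CPM in inseminated queens of Experiment 2. Its level differed between the experiments, whereas the increase, 0.94 ± 0.07 SE on the log2 scale (adjusted p = 7.31e-08), changed by -0.08 from Experiment 1 to Experiment 2 (95% interval -0.35 to 0.19). Neuroligins are postsynaptic adhesion proteins that bind neurexins across the synapse. Both neuroligin-4-like models, GB42885 and GB42886, rose, with log2 fold changes of 0.91 ± 0.12 SE and 0.80 ± 0.11 SE. Their identifiers are consecutive, and whether the models share reads was not tested.

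Among the genes of the visual cascade, norpA (GB42579) rose with little spread. Its values were 273, 261 and 263 CPM in mock libraries against 374 to 434 CPM (median 395 CPM) in the inseminated libraries, and 217, 247 and 242 CPM in saline libraries against 326 to 349 CPM (median 329 CPM). All inseminated libraries were thus above all controls of their experiment. The increase was 1.46-fold (log2 fold change 0.55, 95% interval 0.45 to 0.64, adjusted p = 1.11e-06). Chaoptin (GB41723), in Drosophila an adhesion protein of the photoreceptor membrane, was expressed at a much lower count. It had 2.30 to 4.15 CPM in mock and 7.54 to 12.7 CPM in inseminated libraries of Experiment 1, and 1.31 to 1.60 CPM in saline and 3.08 to 5.91 CPM in inseminated libraries of Experiment 2 (log2 fold change 1.59 ± 0.17 SE, adjusted p = 9.49e-06). Actin (a) (GB41311), 1 of 2 actin models on the phototransduction list, rose from 15.1 to 20.7 CPM in mock to 40.5 to 102 CPM, and from 3.12 to 5.42 CPM in saline to 10.6 to 24.0 CPM (log2 fold change 1.90 ± 0.20 SE, adjusted p = 9.49e-06). The other model, Actin (b) (GB41310), was not called (log2 fold change 0.19 ± 0.24 SE). It measured -0.46 for semen and -0.10 for seminal fluid in Experiment 1, and 0.96 and 0.41 in Experiment 2. Reads that aligned to several places were left out of the counts. How far sequence shared between the 2 actin models alters their values was not tested, so the value of Actin (a) may be less certain than its error shows.

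**Figure D2:**
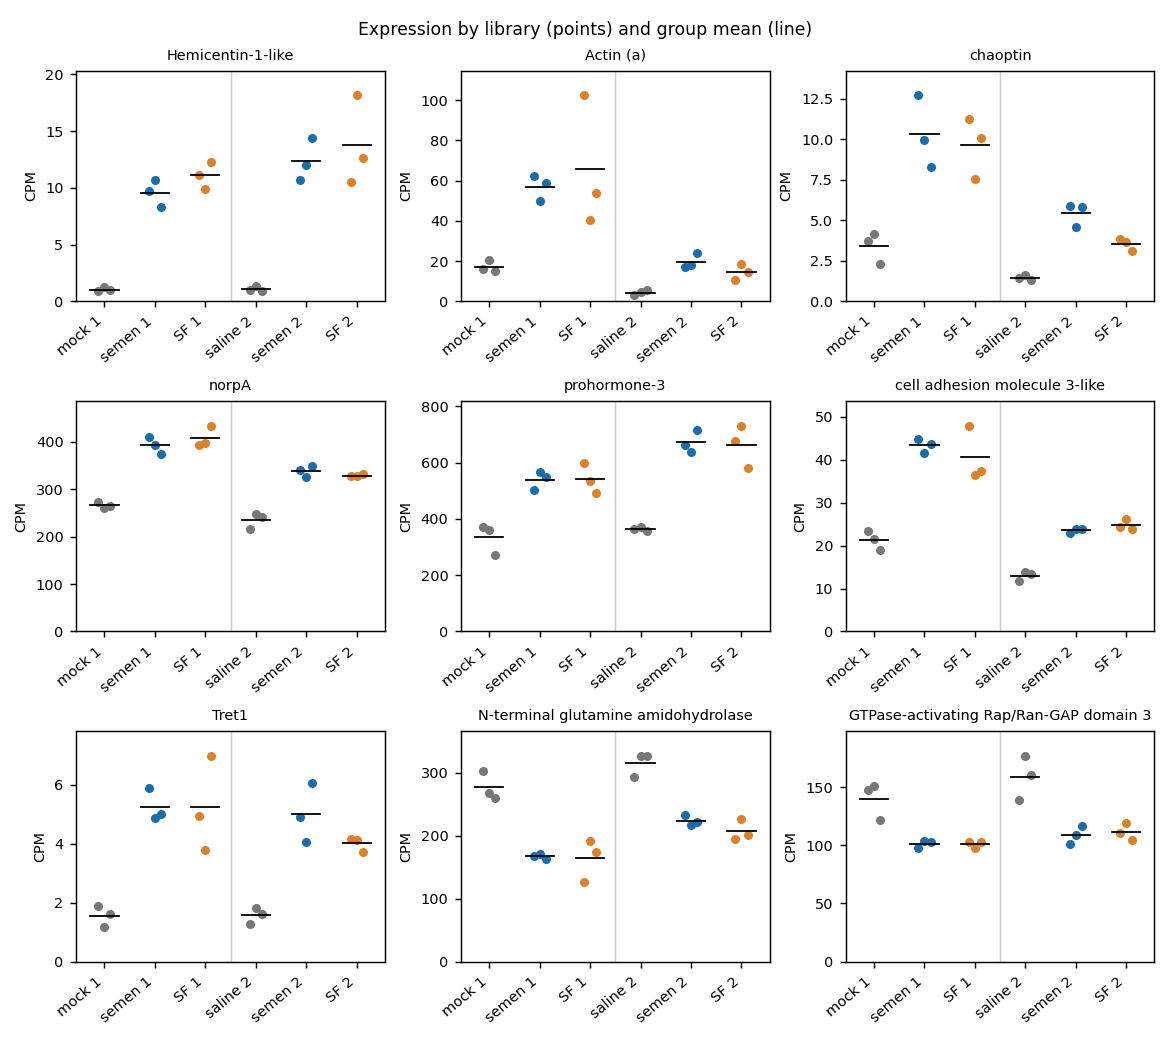
Level of 9 genes in CPM (y axis, from 0) in each of the 18 libraries (points) by group (x axis, with 1 or 2 for the experiment and SF for seminal fluid); black lines are group means of 3 libraries, grey points controls, blue semen and orange seminal fluid. In every panel the 6 inseminated libraries of an experiment lie on one side of its 3 controls, above them in 7 genes and below them in N-terminal glutamine amidohydrolase and GTPase-activating Rap/Ran-GAP domain 3. The study had selected the named genes shown on the same libraries, so this separation is in part fixed by that choice. Over all genes tested, 0.666% had all inseminated libraries above the controls in both experiments and 0.177% below.

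The phototransduction list holds the 22 genes that the study displayed for this pathway, and norpA and Actin (a), which are also among the 37 genes above, were its only called members. None of the other 20 passed the test, and at the share of 2.38% called over all genes a list of this size need not hold any. In these 20 genes 13 had a positive and 7 a negative log2 fold change, and their median was 0.08 beside -0.01 over all genes. The smallest p belonged to another phospholipase C, PLC (GB44174), at 362 to 417 CPM in mock, 364 to 583 CPM in inseminated libraries of Experiment 1, 439 to 481 CPM in saline and 466 to 582 CPM in inseminated libraries of Experiment 2. These groups overlapped in both experiments (log2 fold change 0.23, 95% interval 0.06 to 0.40, adjusted p = 0.227). DAGLB (GB46305), named for a diacylglycerol lipase, had the next smallest p, at -0.62 on the log2 scale (95% interval -1.19 to -0.06, adjusted p = 0.337). The fluids differed in DAGLB, with 0.04 for semen and -0.72 for seminal fluid in Experiment 1, and -0.46 and -1.55 in Experiment 2. The channel TRP gave -0.0035 ± 0.20 SE, the scaffold protein inaD 0.13 ± 0.12 SE, the myosin ninaC 0.19 ± 0.23 SE and the G protein subunit GNB1 0.16 ± 0.30 SE. None of the 5 photoreceptor genes in the summed level given above was called, beside 2.38% of all genes, while norpA and chaoptin had been preselected as changed among the 37. A covariate was made of the mean log2 CPM of the 5 genes, centred within each experiment, and not of their sum. With it, norpA had a log2 fold change of 0.55 and chaoptin of 1.60, and both kept their call. In pools of brains, a change in the number of cells of a type and a change of RNA per cell cannot be told apart.

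**Figure D3:**
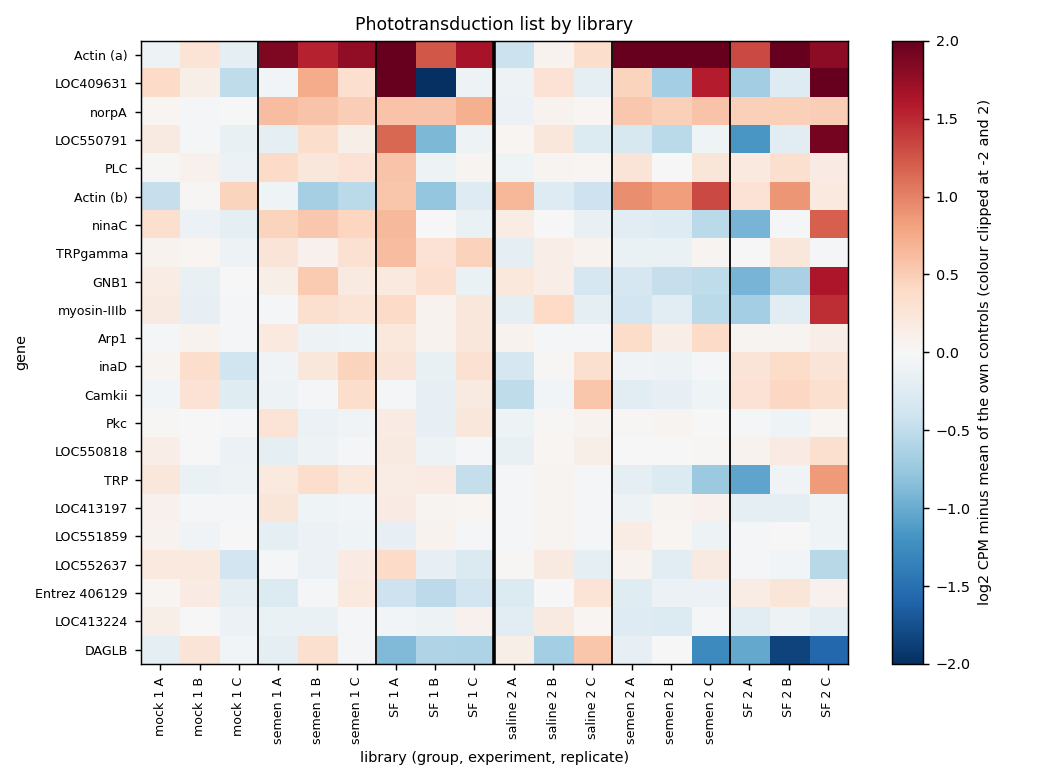
Colour gives the log2 CPM of each gene (rows, ordered by log2 fold change) in each library (columns, with group, experiment and replicate) minus the mean of the 3 controls of the same experiment, clipped at -2 and 2; the thick line separates the experiments. Actin (a) and norpA are red in all 12 inseminated libraries, while ninaC, GNB1, myosin-IIIb and TRP are reddest in replicate C of the seminal fluid group of Experiment 2.

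Of the named genes that rose, 2 encode neuropeptide precursors. Prohormone-3 (GB50651) had 370, 362 and 270.5 CPM in mock against 493 to 598 CPM (median 540 CPM) in inseminated libraries, and 363, 371 and 356 CPM in saline against 582 to 731 CPM (median 669 CPM). No inseminated library overlapped with its controls (log2 fold change 0.78 ± 0.07 SE, adjusted p = 3.12e-06). Prohormone-2-like (GB44988) had 278 to 373 CPM in mock and 454 to 556 CPM after insemination, and 346 to 366 CPM in saline and 509 to 622 CPM after insemination (log2 fold change 0.66 ± 0.07 SE, adjusted p = 9.49e-06). Both are cleaved to secreted peptides that act on neurons and other cells. Glutamyl aminopeptidase-like (GB42326), named for an enzyme that trims acidic residues from peptide ends, rose 1.51-fold (0.59 ± 0.06 SE). ADAM10-like (GB46342), a membrane metalloprotease that sheds the outer part of surface proteins, rose 1.99-fold, from 63.6 to 78.8 CPM in mock to 127 to 178 CPM and from 41.6 to 46.2 CPM in saline to 67.8 to 93.6 CPM.

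Src64B (GB46371), a non-receptor tyrosine kinase, rose 1.78-fold (log2 fold change 0.83 ± 0.08 SE, adjusted p = 3.12e-06), and a tyrosine phosphatase non-receptor type 5-like gene (GB49390) rose 1.63-fold. GTP-binding REM 1 (GB44017) and GTP-binding REM 1-like (GB44018), Ras-like proteins that in mammals inhibit calcium channels, rose by 0.80 ± 0.09 SE and 0.79 ± 0.08 SE on the log2 scale. Their identifiers are again consecutive. A GTPase-activating Rap/Ran-GAP domain 3 gene (GB45413), whose product would switch small GTPases off, fell instead. It stood at 147, 151 and 122 CPM in mock against 97.7 to 104 CPM in inseminated libraries, and at 139, 177 and 160 CPM in saline against 101 to 119 CPM, so that inseminated libraries were below all controls (log2 fold change -0.50 ± 0.06 SE, adjusted p = 2.06e-05). The receptors named for odorant receptor 85f (GB52377) and the alpha-2A adrenergic receptor (GB50585) rose by 1.35 ± 0.17 SE and 0.74 ± 0.12 SE.

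Tret1 (GB48936), which in insects carries the blood sugar trehalose, had 1.17 to 1.89 CPM in mock and 3.79 to 6.98 CPM after insemination, and 1.28 to 1.82 CPM in saline and 3.72 to 6.05 CPM after insemination (log2 fold change 1.62 ± 0.15 SE, adjusted p = 3.12e-06). Its lowest raw count was 26, and its highest 292. Monocarboxylate transporter 4-like (GB53682), named for a carrier of lactate and pyruvate, rose 1.67-fold. D-ETS-4 (GB50829), an ETS domain factor, and DMRT A2-like (GB43847), a factor of the doublesex family, rose 2.43-fold and 2.22-fold. Bardet-Biedl syndrome 2 homolog (GB54522), a part of the complex that moves membrane proteins into cilia, rose 1.78-fold. Otoferlin-like (GB53517), which in mammals acts in vesicle release from hair cells, rose 1.62-fold. The uncharacterised LOC727647 (GB40426) had the second smallest p of all genes. It rose 3.05-fold, from 29.5 to 33.8 CPM in mock to 71.2 to 110 CPM, and from 38.6 to 43.1 CPM in saline to 122 to 166 CPM (adjusted p = 9.88e-09).

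Of the genes with a name 4 fell. N-terminal glutamine amidohydrolase (GB48241), which deamidates the first residue of proteins and so marks them for breakdown, had 303, 267 and 259 CPM in mock against 127 to 191 CPM (median 170 CPM), and 292, 327 and 326 CPM in saline against 195 to 232 CPM (median 220 CPM). The groups did not overlap (log2 fold change -0.64 ± 0.07 SE, adjusted p = 2.07e-05). Thrombospondin type-1 domain-containing 4-like (GB49726), a matrix protein, measured -0.61 ± 0.07 SE on the log2 scale, and enolase-phosphatase E1-like (GB43434), an enzyme of methionine salvage, -0.35 ± 0.04 SE. The change of the latter was small but well separated, with 116 to 118 CPM in mock against 86.7 to 94.1 CPM, and 104 to 116 CPM in saline against 84.0 to 92.3 CPM.

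**Figure D4:**
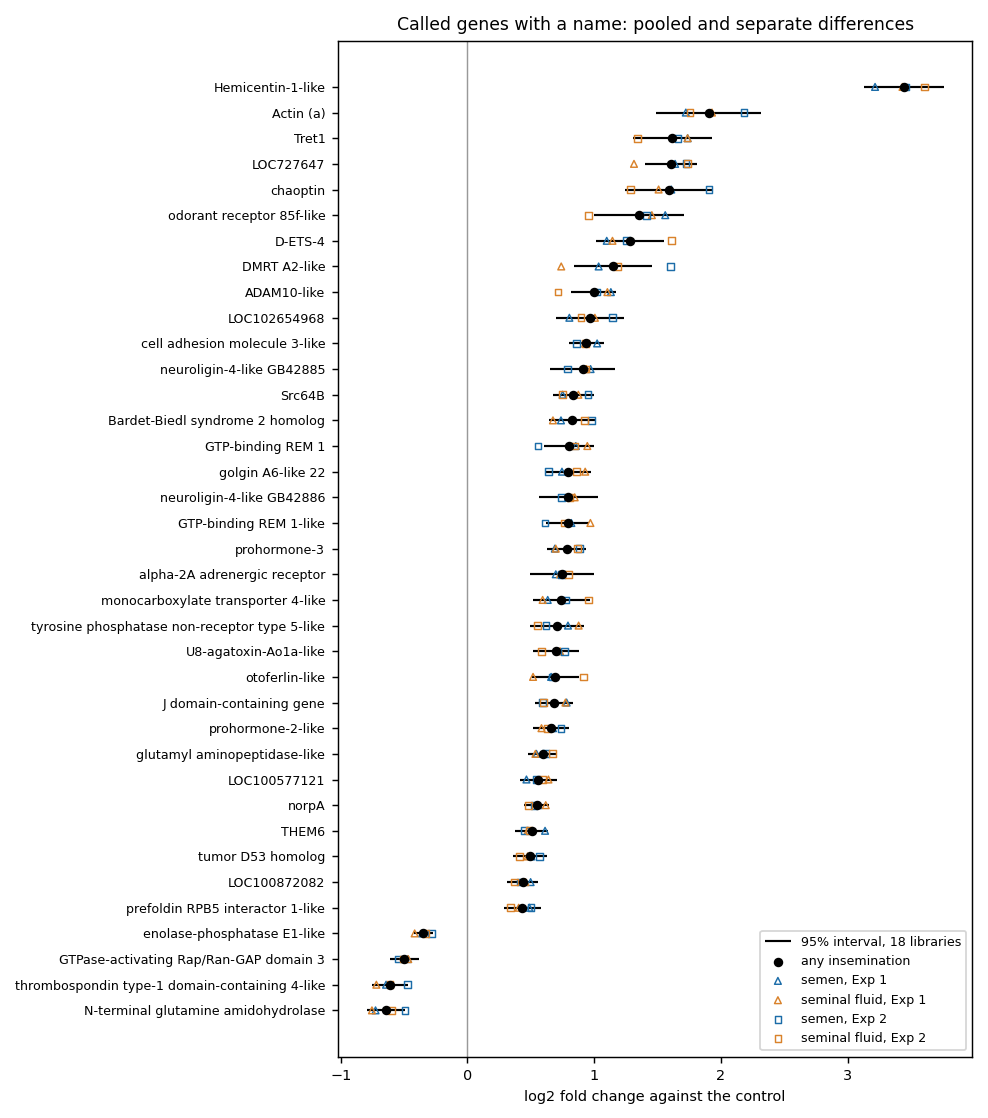
Log2 fold change against the control (x axis) of the 37 called genes that have a name (y axis); black points and bars are the fit of 18 libraries with its 95% interval, and open symbols are the separate differences of semen (blue) and seminal fluid (orange) in Experiment 1 (triangles) and Experiment 2 (squares). In each of the 37 genes all symbols lie on the same side of 0, from Hemicentin-1-like at 3.44 to N-terminal glutamine amidohydrolase at -0.64. The study had selected these genes on the same libraries for a change in the same direction, so the shared side is fixed by that choice. Over all genes tested, 28.6% had the same sign in all 4 differences.

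Of the called genes without a name, GB42910 had the largest increase and GB42583 the largest decrease. In GB42910 no control library reached the minimum count required for testing. The gene was tested on account of its inseminated libraries only, so its call is in part fixed by the filter. GB42910 was close to the limit of detection, with 0 to 24 counts per library, 0.0719 to 0.146 CPM in mock and 0.171 to 0.855 CPM after insemination, and 0 to 0.0278 CPM in saline and 0.0442 to 0.311 CPM after insemination (log2 fold change 2.12 ± 0.54 SE, adjusted p = 0.0559). GB42583 fell from 1.58 to 3.17 CPM in mock to 0.392 to 1.34 CPM, and from 0.919 to 2.03 CPM in saline to 0.370 to 0.742 CPM (log2 fold change -1.53 ± 0.25 SE, adjusted p = 0.00131), with 11 to 87 counts per library. At the other end of the scale, the most abundant gene that rose was GB40735, with 3191 to 3384 CPM in mock, 4047 to 4876 CPM after insemination, 3290 to 3670 CPM in saline and 3755 to 4093 CPM after insemination (log2 fold change 0.28 ± 0.06 SE, adjusted p = 0.0311). The most abundant gene that fell, GB47563, changed by -0.94 ± 0.26 SE on the log2 scale (adjusted p = 0.0806), but its groups overlapped in Experiment 1, with 3344 to 7922 CPM in mock and 2230 to 5809 CPM after insemination. In Experiment 2 it had 1428 to 2794 CPM in saline and 441 to 1409 CPM after insemination, without overlap. GB49544, the most abundant gene of the whole data set, varied several-fold within groups and was not called (log2 fold change -0.25 ± 0.48 SE, adjusted p = 0.869). Without replicate C of the seminal fluid group of Experiment 2 its log2 fold change was -0.92.

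Whether the change differed between the experiments, and so between mock and saline as the control, was tested as an interaction. No gene was called (edgeR, 0% of 11857, smallest adjusted p = 0.723), and 488 genes lay under 0.05 before adjustment. Neither DESeq2 nor limma-voom called any. In the 37 named genes the difference between experiments ranged from -0.31 to 0.51 on the log2 scale, and none had an unadjusted p under 0.05. These genes were selected for a change of the same direction in both experiments, so their differences are in part fixed by that choice. The largest was that of DMRT A2-like (0.51, 95% interval -0.04 to 1.06). For norpA it was -0.09 (95% interval -0.28 to 0.10), and for Hemicentin-1-like 0.21 (95% interval -0.39 to 0.81). These intervals still allow a sizeable difference in Hemicentin-1-like.

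Seminal fluid was compared with semen over both experiments to read the common response against the difference between the fluids. No gene was called (edgeR, 0% of 11857, smallest adjusted p = 0.629), and 783 genes lay under 0.05 before adjustment. Of the alternatives, limma-voom called 0 and DESeq2 3. The model fits a difference shared by both experiments, so a difference in a single experiment may go uncalled. The study, which tested each experiment alone, reported many more genes between the fluids in Experiment 2 than in Experiment 1. Among the 282 genes of the common response, the median absolute difference between the fluids was 0.08 on the log2 scale, beside a median absolute change against the control of 0.45, and the 95% interval of the difference included 0 in 265 genes (94%). Over all genes tested the median absolute difference was 0.10 and the interval included 0 in 93.4%. The 282 genes were selected for a change against the control that was large relative to the spread, in which a difference between the fluids counts as spread, so these values are in part fixed by the selection and describe the genes only. The half-width of the interval had a median of 0.21 among the 282. For norpA the difference was 0.01 (95% interval -0.10 to 0.12), for prohormone-3 -0.01 (95% interval -0.18 to 0.17) and for Hemicentin-1-like 0.18 (95% interval -0.09 to 0.46). Of the 37 named genes 3 had an unadjusted p under 0.05. The differences, as seminal fluid minus semen, were -0.36 in chaoptin (95% interval -0.68 to -0.03), -0.36 in DMRT A2-like (95% interval -0.65 to -0.08) and 0.20 in golgin A6-like 22 (95% interval 0.02 to 0.38). None of them passed the adjustment over all genes (adjusted p = 0.708 in edgeR's quasi-likelihood test for each). Read separately, chaoptin rose by 1.61 with semen and 1.51 with seminal fluid in Experiment 1, and by 1.91 and 1.29 in Experiment 2.

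The number of genes in the common response depended on single control libraries. It was 150 without replicate C of the mock group and 380 without replicate C of the saline group. Without replicate C of the seminal fluid group of Experiment 2, which stood apart in photoreceptor genes, 308 genes were called, 259 of them also among the 282.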

How the data were processed

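Poly(A) RNA of queen brains was sequenced on stranded libraries as single reads of 120 bp. The authors trimmed the reads with Trimmomatic, aligned them with STAR 2.4.2a to honeybee assembly 4.5 and deposited raw counts per gene model from HTSeq, as given in the submitters' processing notes and the methods of the study. The strand setting of the counting is not given in the sources used here, so overlapping and antisense models remain uncertain. Of all reads in the deposited tables, 68.8 to 72.1% were assigned to a gene, and the 5 totals of unassigned reads were left out. Replicates within groups differed by more than sampling noise (chi-square per gene at least 18.2).

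Genes that reached 10 counts in 6 or more libraries were fitted with edgeR 4.0.16 in R 4.3.3 (TMM, quasi-likelihood F test, two-sided, Benjamini-Hochberg over all tested genes, adjusted p under 0.1), after a check on simulated data. The models were experiment plus insemination, their interaction, and experiment plus fluid. DESeq2 1.42.0, limma-voom 3.58.1, other scalings, filters and left-out libraries were alternatives. SE is the absolute log2 fold change over the root of F. P-values measure the spread between pools of brains from 1 colony.

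Gene names were taken from the study's tables by BeeBase identifier (57 identifiers); the reference table could not be paired with the others. Named genes were to be the called genes of the same sign in all 4 differences with the largest changes, the most abundant called genes and list members; of the genes without a name, the most changed and the most abundant in each direction are given. The comparison and the gene lists were chosen with earlier results of these data known.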

Additional observations from a re-analysis of the deposited data

Results flagged for a closer look

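In 94 sets of 6 inseminated libraries of an experiment, the gap between the most extreme library and the next was compared with the whole range. The ratio exceeded Dixon's 95% critical value in 8 sets, where chance gives about 1 in 20. Replicate C of the seminal fluid group of Experiment 2 accounted for 4 of them. It was highest in the CPM of GB49544 (0.919 of the range), in the share of reads on that gene (0.930) and in the summed photoreceptor level (0.723), and lowest in enolase-phosphatase E1-like (0.684). Replicate A of the seminal fluid group of Experiment 1 was highest in Src64B (0.889 of the range) and in Actin (a) (0.651). Replicate B of the seminal fluid group of Experiment 2 was highest in golgin A6-like 22 (0.712), and replicate C of the semen group of Experiment 2 in U8-agatoxin-Ao1a-like (0.626). Without these libraries in turn, each of the 5 named genes kept its call.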

How the results depend on the processing

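The count of 282 genes stayed within 1.5 times under RLE and upper quartile scaling, without GB49544, with other filters, limma-voom, a robust prior, the photoreceptor covariate (235) and the means of the 6 groups. It was 457 with DESeq2, which included all 282, and 171 at an adjusted p under 0.05. It was 48 and 56 in Experiments 1 and 2 alone, and 159 and 125 with semen or seminal fluid libraries only, all fits of fewer libraries. Leaving out 1 library gave 150 to 380, lowest without mock replicate C. The interaction gave 0 to 2 calls: GB40548 without mock replicate A, and GB40038 and GB51439 without saline replicate A. Seminal fluid against semen gave 0 to 3: GB40972, GB43788 and GB55407 without replicate A of the seminal fluid group of Experiment 1. DESeq2 called 3 others there, GB45627, GB47783 and GB51305. These genes are named after their values were seen. Of the 37 named genes, 29 kept direction and call in all 34 alternatives, and the other 8 lost it only where 1 experiment was fitted alone. These genes were selected on the same libraries, so their kept calls are in part fixed by that choice. The change of GB49544 turned to 0.17 with seminal fluid libraries only, and DAGLB was called there (-1.16). GB47563 lost its call in 16 alternatives. The replicate letters did not pair the libraries: deviations from group means of same-letter libraries correlated at -0.21 to 0.11 over 18 pairs, and with the replicate block 216 genes were called, 206 of them among the 282; it gave 0 calls in the other 2 tests.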

Other observations

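Called genes often had consecutive identifiers. Of 260 called genes with a tested neighbour in identifier number, 54 (20.8%) had a called neighbour, compared with 376 of 11077 genes (3.39%) that were not called. Of the 30 consecutive called pairs, 23 rose together, 2 fell together and 5 moved in opposite directions. The gene before norpA had a log2 fold change of 0.57 and norpA one of 0.55. Tret1 rose by 1.62 on the log2 scale, and the pair of genes before it by 0.55 and 1.77. D-ETS-4, THEM6, glutamyl aminopeptidase-like and prefoldin RPB5 interactor 1-like each had a called neighbour that also rose. N-terminal glutamine amidohydrolase fell by 0.64, while the next gene rose by 1.47. The files hold no coordinates, and whether such models overlap, share reads or are parts of 1 transcript was not tested.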
